A study of Mus musculus with 4 samples.

Results

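The angiopoietin and Tie genes were examined in maps of H3K27ac, a histone mark of active promoters and enhancers, from mouse liver sinusoidal endothelial cells (LSECs). The members were chosen by name: *Tek*, *Tie1*, *Angpt1*, *Angpt2*, and *Ptprb*, 5 of 21887 protein-coding genes in the GRCm38 gene table. For each gene, peaks were collected from the gene body and 10 kb on each side. A peak within 1 kb of either end of the gene is called a gene-end peak and any other a distal peak. Peaks of the 2 libraries are called shared when they overlap by at least 1 bp. The windows of the 5 genes held 18 of the 26975 replicate 2 peaks and 52 of the 64498 replicate 3 peaks.

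The study isolated LSECs and profiled H3K27ac to look for regulatory elements. Both H3K27ac libraries are named C2 and C3 by the authors and replicates 2 and 3 here. The records name no condition that sets them apart, so they were treated as a single condition. Their input libraries were not analysed here. According to the methods, LSECs were taken from perfused mouse livers with anti-CD146 microbeads. A short culture on a coated dish followed in the general isolation protocol, and whether the profiled cells went through it is not stated. LSECs came from mice with a dCas9-KRAB allele together with Cdh5 CreERT2, an inducible Cre driven in endothelial cells, or from Col4a1 fl/wt mice with or without that Cre, and the methods do not say which served here. The sample records give no strain, genotype, treatment, age, or sex of the mice, nor whether the 2 libraries came from separate animals. Read depth is unknown, because the files hold peaks and no read counts. With 2 libraries treated as a single condition, no test between groups was possible, so each value is given per library. Counts of members are set beside the same count over all protein-coding genes.

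The angiopoietins are secreted ligands of the endothelial receptor tyrosine kinase TIE2, the product of *Tek*. *Angpt1*, made mainly by cells around the endothelium, activates the receptor and stabilizes vessels. *Angpt2*, made by endothelial cells themselves, acts as a weak agonist or an antagonist depending on context. *Tie1* encodes a related receptor that modulates TIE2, and *Ptprb* encodes VE-PTP, an endothelial phosphatase that dephosphorylates TIE2. In the liver the pathway is known for its part in sinusoidal vessel growth and regeneration.

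The labelled cell type was checked at marker genes. Of 14 LSEC markers, 11 had a shared gene-end peak, and the other 3 (*Stab2*, *Mrc1*, and *Clec4g*) had a gene-end peak in replicate 3 only. Of 9 stellate and mural cell markers, 0 had a shared gene-end peak and 2, *Col1a1* and *Acta2*, had one in replicate 3 only. The Kupffer cell list gave 0 of 7 in either library, and the hepatocyte list 0 of 7 shared and 2 in replicate 3 only. Of all protein-coding genes, 43.4% had a shared gene-end region and 53.9% had a gene-end peak in replicate 3. A shared distal region was present at all 14 LSEC markers, against 39.6% of all protein-coding genes. It was also present at 1 stellate and mural cell marker (*Acta2*) and 1 Kupffer cell marker (*Csf1r*). Of the hepatocyte markers, 3 had one (*Alb*, *Fgb*, and *Hnf4a*), or 42.9% of that list. Their highest distal fold enrichments in replicates 2 and 3 were 7.93 and 16.9 at *Alb*, 48.8 and 141 at *Fgb*, and 14.5 and 59.3 at *Hnf4a*. The part of other cell types in the results was not tested.

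H3K27ac peaks of both libraries lay at the genes of the receptors and the phosphatase and in the stretch that *Angpt2* shares with *Mcph1*, and no peak was called at *Angpt1*. Shared regions numbered 8 at *Ptprb*, 6 at *Tek*, 3 at *Angpt2*, 1 at *Tie1*, and 0 at *Angpt1*, which makes 18 in all. Where the overlap had to cover 50% of both peaks, *Tek* had 5, *Ptprb* 4, and *Angpt2* and *Tie1* 1 each, so the order of *Tek* and *Ptprb* turned. Of the 18, 2 were gene-end regions and 16 were distal. Every replicate 2 peak in the windows overlapped a replicate 3 peak, and replicate 3 had another 34 peaks without a counterpart. Replicate 3 had more peaks in general, 64498 against 26975 in replicate 2. The shares with a counterpart over the full lists are not given here, so these counts are not read as a trait of the members. The median number of shared regions over all protein-coding genes was 1. *Ptprb* stood at the 99.0th percentile of that count and *Tek* at the 97.8th, whereas *Angpt2* stood at the 87.9th, *Tie1* at the 54.5th, and *Angpt1* at the 20.8th. Longer genes have wider windows, so each gene was also ranked among genes within 1.5 times its own length. The percentiles were then 96.4 for *Ptprb* (2080 genes), 90.3 for *Tek* (1764 genes), 84.6 for *Angpt2* (3551 genes), 49.7 for *Tie1* (4835 genes), and 18.5 for *Angpt1* (850 genes). The plot of peaks along each gene shows where the regions lie.

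**Figure D1:**
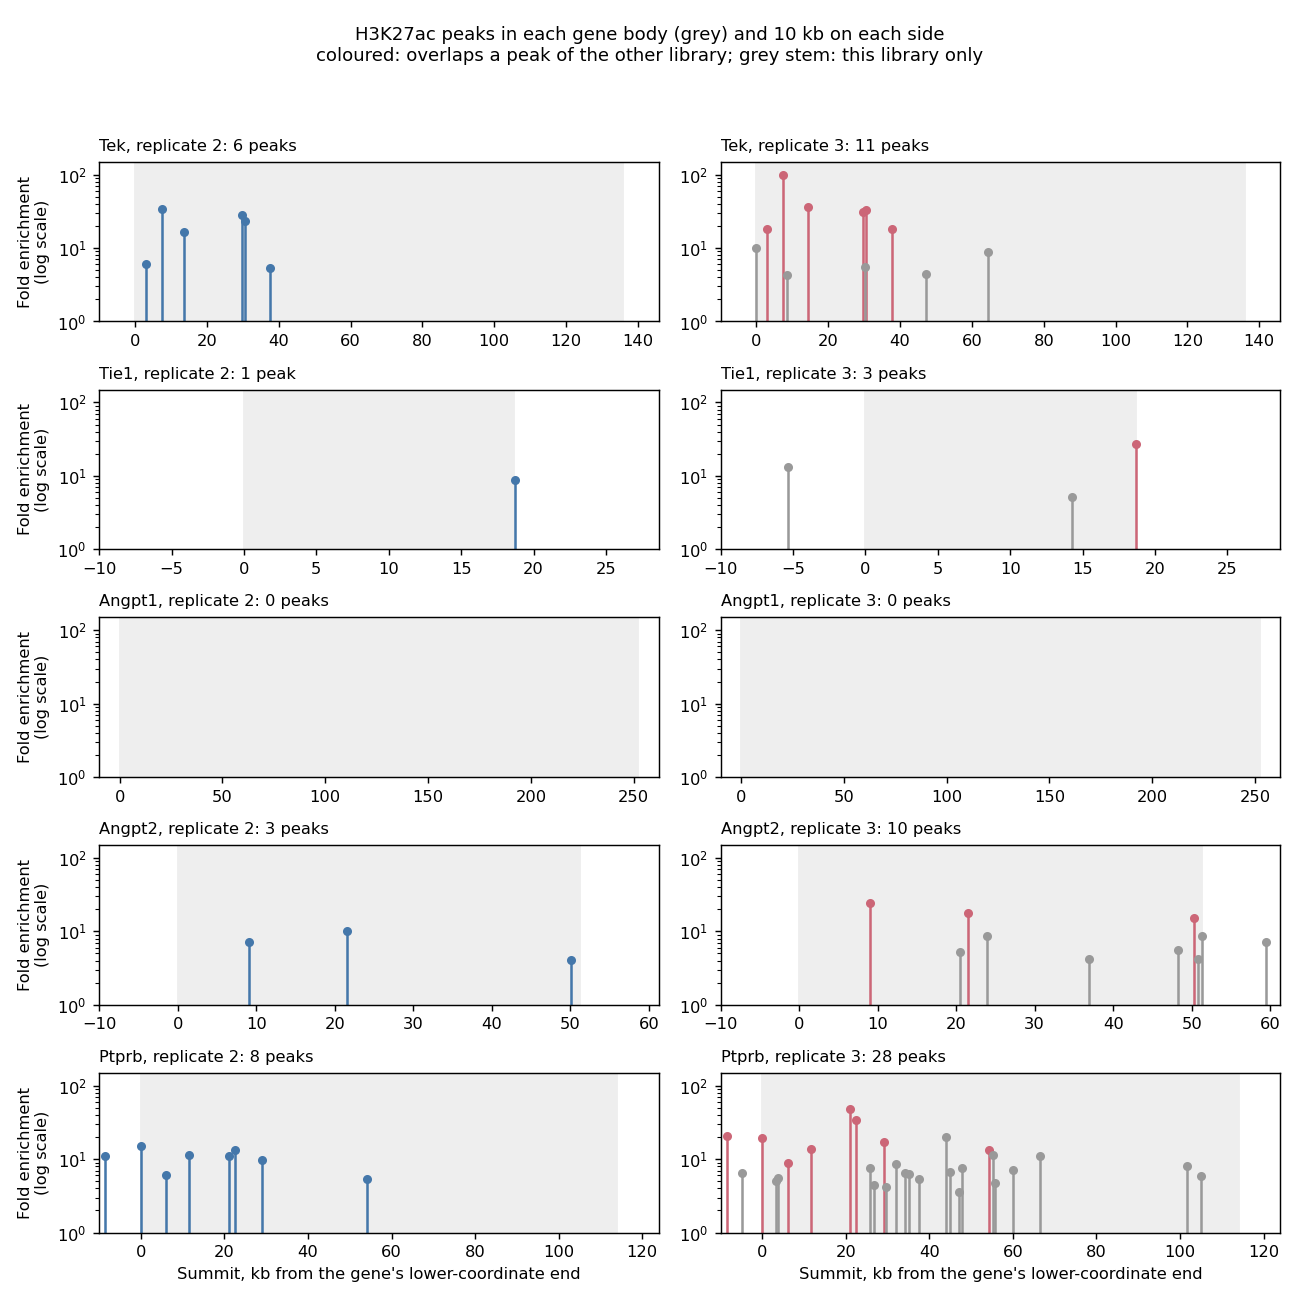
H3K27ac peaks at the 5 genes in replicate 2 (left) and replicate 3 (right): each stem is a peak, placed by its summit in kb from the lower-coordinate end of the gene, and its height is the fold enrichment over background on a log scale. Grey shading marks the gene body, coloured stems overlap a peak of the other library, and grey stems do not. *Tek* peaks crowd into the part of the gene near its start, *Ptprb* has 28 replicate 3 peaks against 8 in replicate 2, and the *Angpt1* panels are empty.

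A shared gene-end region was present at *Tie1* and *Ptprb*, 2 of 5 members, against 43.4% of all protein-coding genes. In replicate 2 alone a gene-end peak was also present at 2 of 5, against 43.4%, and in replicate 3 at 4 of 5, against 53.9%, the 2 additional genes being *Tek* and *Angpt2*. A shared distal region was present at *Tek*, *Angpt2*, and *Ptprb*, 3 of 5 members, against 39.6%. With 5 genes, these counts are too few to be set apart from the background.

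RefSeq promoter windows, 250 bases before to 50 after a start site in GRCm38, were listed for 2 of the 5 members, *Tek* and *Tie1*. They are shown because the libraries differ over the *Tek* window but not over the *Tie1* window. All 300 bases of the *Tie1* window lay under a peak of each library. All 300 bases of the *Tek* window lay under a peak of replicate 3 but 0 under a peak of replicate 2. Both windows read 5′ to 3′ in the direction of the gene. Capitals mark the ETS core GGAA on either strand and the GATA core AGATAA on either strand. The *Tek* window is chr4:94739039-94739338 on the plus strand, with its start site 203 bp inside the gene end used here. The *Tie1* window is chr4:118489800-118490099 on the minus strand, with its start site at the gene end.

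Tek: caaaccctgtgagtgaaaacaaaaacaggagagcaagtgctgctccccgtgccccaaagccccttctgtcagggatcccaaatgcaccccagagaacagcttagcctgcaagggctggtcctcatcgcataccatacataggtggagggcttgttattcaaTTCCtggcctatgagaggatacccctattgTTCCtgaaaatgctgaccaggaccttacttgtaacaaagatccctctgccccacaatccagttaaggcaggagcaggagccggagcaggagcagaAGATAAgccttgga

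Tie1: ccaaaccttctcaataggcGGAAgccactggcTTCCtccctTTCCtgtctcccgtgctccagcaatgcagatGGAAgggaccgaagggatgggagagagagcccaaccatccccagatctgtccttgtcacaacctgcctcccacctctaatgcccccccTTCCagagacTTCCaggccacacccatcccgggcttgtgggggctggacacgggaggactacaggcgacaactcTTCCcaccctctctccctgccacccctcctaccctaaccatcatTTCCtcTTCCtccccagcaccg

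The *Tie1* window held 9 matches to the ETS core and the *Tek* window 2, against a median of 3 over 32851 windows, of which 96.0% held at least 1. The *Tek* window held 1 match to the GATA core, which 11.2% of windows had, and the *Tie1* window 0. Of the other letters searched on both strands, the *Tek* window held 1 match to the SOX core ACAAAG (18.7% of windows) and 1 to the KLF core CACCC (57.5% of windows). The *Tie1* window held 3 matches to CACCC and 0 to ACAAAG. Neither window held the FOX core TGTTTA (13.4% of windows), the AP-1 letters TGANTCA (7.81% of windows), or the TATA box TATAAA (13.6% of windows). Of these 17 matches, 0 overlapped another, and a match of letters does not show that a factor binds. CpG dinucleotides numbered 3 in the *Tek* window, at the 27.3rd percentile of all windows, and 7 in the *Tie1* window, at the 49.6th percentile.

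*Tek* (gene 21687), the gene of the receptor TIE2, spans 136 kb at chr4:94739086-94874976 on the plus strand. Its strongest H3K27ac region lay inside the gene at chr4:94746095-94747179, with the replicate 3 summit 7.51 kb from the gene's start. The fold enrichment there, the summit's signal divided by the peak caller's background, was 33.9 in replicate 2 and 98.0 in replicate 3. These values were at the 96.6th and 98.6th percentiles of their own lists, and the region ranked highest of the *Tek* regions in both libraries. Fold enrichments of different libraries are not on a common scale, so each is read against its own list.

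The start of *Tek* was less marked. Replicate 3 had a gene-end peak at chr4:94738664-94739991, enriched 10.0-fold, at the 54.4th percentile, and replicate 2 had no peak within 1 kb, its nearest lying 2.86 kb away. For comparison, 5079 other peaks of replicate 3 had values within 10% of this one, and 23.1% of them overlapped a replicate 2 peak (95% Wilson interval, 21.9% to 24.3%, for counting error only). Most peaks of this strength had no counterpart. The peaks compared were matched on fold enrichment alone. This one was 1328 bp wide, against a median of 345 bp over the replicate 3 list, and the share for peaks of like width was not computed. In replicate 3 the highest distal fold enrichment at *Tek* was 9.77 times the gene-end value. Among the 9751 protein-coding genes with both kinds of replicate 3 peak, the distal value was above the gene-end value in 36.5%, and the *Tek* ratio was at the 98.2nd percentile. The highest distal value itself was at the 98.1st percentile of all protein-coding genes in replicate 2 and the 98.3rd in replicate 3. Genes without a distal peak count as 0 in that ranking. Unlike the numbers of shared regions, the ratio and the highest distal value were not ranked among genes of similar length. A long gene such as *Tek* has a wider window for distal peaks.

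**Figure D2:**
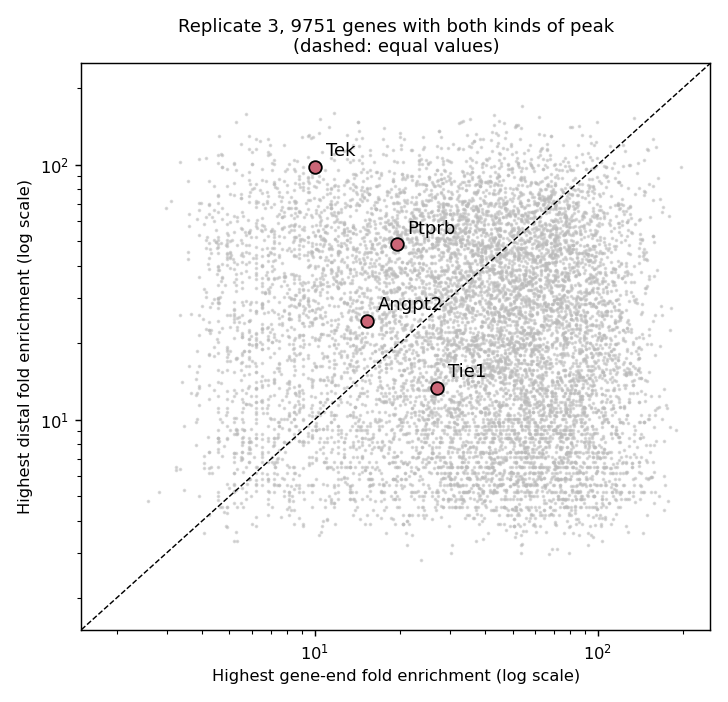
Highest gene-end fold enrichment (horizontal, log scale) against highest distal fold enrichment (vertical, log scale) in replicate 3, for the 9751 protein-coding genes with both kinds of peak (grey points) with 4 members in red and the line of equal values dashed. *Tek*, at 10.0 and 98.0, lies far above the line, *Ptprb* and *Angpt2* lie above it, and *Tie1* lies below it.

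Of the other 5 shared regions of *Tek*, 1 lay before the strongest and 4 after it. The one nearest the start, at chr4:94741788-94742167, was enriched 6.10-fold in replicate 2 and 17.9-fold in replicate 3. At chr4:94752510-94753900, the values were 16.5 and 35.8. This region was the widest of the 6 and had the largest gap between the summits of the 2 libraries, 612 bp.

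A pair of neighbouring regions lay about 30 kb from the start. That at chr4:94768545-94769098 had 27.8 in replicate 2 and 31.1 in replicate 3, and that at chr4:94769528-94769929 had 23.04 and 33.2. In replicate 2 they ranked at the 92.9th and 87.9th percentiles, above the region at 94752510, whereas in replicate 3 they ranked below it, at the 83.7th and 84.9th percentiles against 86.2. The last shared region, chr4:94776547-94777126, had 5.42 and 17.9. Past it, replicate 2 had no peak in the remaining 98.1 kb of the gene. Replicate 3 had weak peaks 47.1 and 64.3 kb from the start, with fold enrichments of 4.43 and 8.85, and then no peak in the last 71.4 kb. The window also holds *Gm40205*, a long noncoding RNA gene 6.52 kb before *Tek*, and *Eqtn*, a protein-coding gene 0.721 kb past its other end.

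*Tie1* (gene 21846), the gene of the TIE1 co-receptor, is short, 18.7 kb at chr4:118471191-118489849 on the minus strand. Its only shared region lay over its start, at chr4:118489622-118490268, enriched 8.68-fold in replicate 2 and 27.03-fold in replicate 3. Each ranked differently in its list, at the 41.7th percentile and the 81.0th. The summits were 18 bp apart. An annotated pseudogene, *Gm12859*, lies 0.894 kb beyond the start of *Tie1*, and the peak lies within 1 kb of its end too.

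The other *Tie1* peaks were called in replicate 3 only. A peak in the gene body, at chr4:118485396-118485577, had a fold enrichment of 5.21. A peak at chr4:118465680-118466027, 5.16 kb past the 3′ end, had a fold enrichment of 13.4. Among 4111 peaks of like strength in that library, 43.6% overlapped a replicate 2 peak (95% Wilson interval, 42.1% to 45.1%). In contrast to *Tek*, the highest distal value of *Tie1* in replicate 3 was 0.494 times its gene-end value.

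*Ptprb* (gene 19263), the gene of VE-PTP, spans 114 kb at chr10:116275502-116389538 and carried the most peaks of the 5 genes. The gene-end region at its lower-coordinate end, chr10:116275045-116275885, was enriched 15.3-fold in replicate 2 and 19.5-fold in replicate 3, at the 72.2nd and 74.3rd percentiles. It also lies within 1 kb of an end of *Ptprr*, a neighbouring phosphatase gene whose annotated end is 0.57 kb away, so the peak cannot be given to either gene alone.

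Inside *Ptprb* the strongest replicate 3 region was at chr10:116296273-116297000, with a fold enrichment of 48.7 at the 91.2nd percentile. Replicate 2 had 11.0 there, at the 56.7th percentile. Its neighbour at chr10:116297732-116298511 had 34.0 in replicate 3 and 13.4 in replicate 2, the highest distal value of that library at this gene. The libraries therefore differed in which region led: the highest distal value was 2.5 times the gene-end value in replicate 3 and 0.88 times in replicate 2.

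The remaining shared regions of *Ptprb* had lower values than these neighbours in replicate 3, but not all did in replicate 2. At chr10:116281520-116281734, enrichment was 6.10-fold in replicate 2 and 8.83-fold in replicate 3. At chr10:116286752-116287359, it was 11.5 and 13.6. At chr10:116304416-116304757, it was 9.70 and 17.1. Their replicate 3 summits lay 6.11, 11.6, and 29.1 kb from the end that faces *Ptprr*.

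The region farthest along *Ptprb*, chr10:116329459-116329861, was enriched 5.42-fold in replicate 2 and 13.4-fold in replicate 3. The last shared region, chr10:116266622-116267398, was outside *Ptprb* and within the body of *Ptprr*, with 11.1 and 20.6. Another 20 peaks of *Ptprb* were called in replicate 3 only, ranging from 3.58-fold to 19.7-fold with a median of 6.51. They surround the shared regions and run on beyond them. The strongest of them, at chr10:116319281-116319673, was enriched 19.7-fold, a strength at which 78.5% of 2933 others had a replicate 2 counterpart (95% Wilson interval, 76.9% to 79.9%). Most peaks of that strength had a counterpart, and this one did not. The peaks compared were again matched on fold enrichment alone. This one was 393 bp wide, against a median of 696 bp over replicate 3 peaks with a counterpart. The share for peaks of like width was not computed. Past the region at 116329459, replicate 2 had no peak in the last 59.7 kb of the gene, where replicate 3 had 6. A small nucleolar RNA gene, *Gm26495*, lies within that stretch.

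*Angpt2* (gene 11601), the gene of the ligand that endothelial cells make, spans 51.3 kb at chr8:18690263-18741562 and lies wholly within the body of *Mcph1*, a gene of chromosome condensation and DNA damage response. H3K27ac there cannot be assigned to either gene. The strongest replicate 3 region, chr8:18699061-18699555, was enriched 24.4-fold in replicate 3 and 7.15-fold in replicate 2. The region at chr8:18711634-18712092 had 17.9 in replicate 3 and 10.0 in replicate 2, where it was the highest of the 3. These values were at the 79.0th and 72.4th percentiles in replicate 3 and the 28.1st and 50.4th in replicate 2, so the order of the regions differed between the libraries.

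The third shared region of *Angpt2* sat on the 1 kb limit. At chr8:18739989-18740824, the replicate 3 peak was 738 bp from the upper-coordinate end of the gene and had a fold enrichment of 15.3, whereas the replicate 2 peak was 1152 bp from that end and had 4.09. The replicate 2 value was at the 0.354th percentile of its list, among the weakest peaks called. The region was counted as distal because only replicate 3 lay within the limit. Replicate 3 had 2 more gene-end peaks there, with fold enrichments of 4.23 and 8.79, the latter over the gene end itself. The other 5 peaks called at *Angpt2* in that library alone were enriched 4.23-fold to 8.79-fold.

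*Angpt1* (gene 11600), the gene of the agonist ligand, is the longest member, 252 kb at chr15:42424667-42676977. Neither library had a peak in its body or within 10 kb, as in 30.0% of all protein-coding genes and 23.8% of the 850 genes of similar length. The nearest replicate 2 peak was 592 kb from the gene body, with a fold enrichment of 6.10, and the nearest replicate 3 peak was 286 kb away, with 4.06. Of all other protein-coding genes, 7.07% were at least as far from a replicate 2 peak and 10.0% at least as far from a replicate 3 peak. The long noncoding RNA gene *Gm41313*, inside *Angpt1*, had no gene-end peak either. An empty window says that no peak passed the authors' threshold, not that there was no acetylation.

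**Figure D3:**
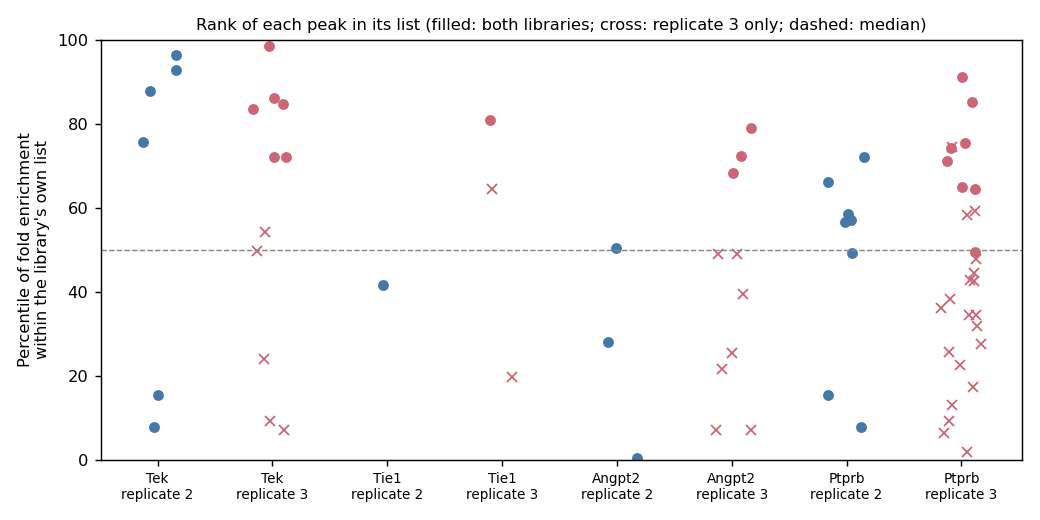
Percentile of each peak's fold enrichment within its own library's list (vertical, 0 to 100), for the 4 members with peaks, by library. Filled circles are peaks with a counterpart in the other library, crosses are replicate 3 peaks without one, and the dashed line is the list median. The circles of *Tek* reach the 96.6th and 98.6th percentiles, and most crosses lie below the median.

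Across the members, the 18 shared regions ranked near the middle of replicate 2 peaks and higher in replicate 3. Their fold enrichment in replicate 2 ran from 4.09 to 33.9 with a median of 10.5, against 9.76 over the whole list, and 10 of the 18 were above the list's median. In replicate 3 it ran from 8.83 to 98.0 with a median of 20.03, and 17 of 18 were above the list's median of 8.89. Peaks with a counterpart are stronger in general, however, and over all replicate 3 peaks that overlap a replicate 2 peak the median was 27.03. The 34 peaks called in replicate 3 only ran from 3.58 to 19.7 with a median of 6.35, and 5 of them were above the list's median. The summits of the 2 libraries lay a median of 28.5 bp apart, and within 100 bp in 15 of the 18 regions. These regions were picked because their peaks overlap, which brings summits together. The distance over all shared regions is not given here, so it is not read as a trait of the members.

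Of the 20 other genes of the angiopoietin pathway, 14 had a shared gene-end region, or 70%, against 43.4% of all protein-coding genes. This contrast rests on the 1 bp rule: where the overlap had to cover 50% of both peaks, 3 of 20, or 15%, had one, against 22.0% of all protein-coding genes. A shared distal region was present at 14, against 39.6%. The median number of shared regions at the 20 genes was 2, against 1. Longer genes have wider windows, and neither value was set beside genes of similar length or recounted under the 50% overlap. The list was also chosen with earlier results of these data known, so these contrasts are descriptive. Neither ligand of the list had a shared region. *Angpt4*, another angiopoietin, and *Svep1*, an extracellular protein that binds TIE1, had no gene-end peak in either library and 1 distal peak each in replicate 3 only, with fold enrichments of 6.21 and 4.56.

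Genes that act below TIE2 within the cell are given by list, under the 1 bp rule. Of the 10 adaptors and effectors, 7 had a shared gene-end region, 2 had one in replicate 3 only, and 1 had none. Over all protein-coding genes, 43.4% had a shared gene-end region and 53.9% a gene-end peak in replicate 3. Lists this short are too few to be set apart from those shares. The recount with 50% overlap was made for the 20 genes together, not by list. *Dok2*, an adaptor recruited to activated TIE2, had gene-end fold enrichments of 23.7 in replicate 2 and 68.4 in replicate 3. The adaptor gene *Grb14* had a gene-end value of 5.97 in replicate 3 only, and the kinase gene *Pak1* had 10.4 in replicate 3 only. *Grb7*, another adaptor, had no gene-end peak but a distal region with 12.2 in replicate 2 and 53.4 in replicate 3.

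All 4 genes of the PI3K-AKT-FOXO1 branch had a shared gene-end region and a shared distal region. The shares over all protein-coding genes were 43.4% and 39.6%. *Foxo1*, a transcription factor that this branch inactivates and that induces *Angpt2*, had gene-end values of 11.0 in replicate 2 and 33.9 in replicate 3, with 6 shared regions in all. Of the 3 integrin genes, *Itga5* and *Itgb1* had a shared gene-end region, beside the same 43.4%. *Itgav* had none, but 7 shared distal regions, with highest values of 16.3 and 35.8. *Cdh5*, the gene of VE-cadherin, the junction protein that VE-PTP associates with, had 9 shared regions and gene-end values of 16.3 and 36.1.

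**Figure D4:**
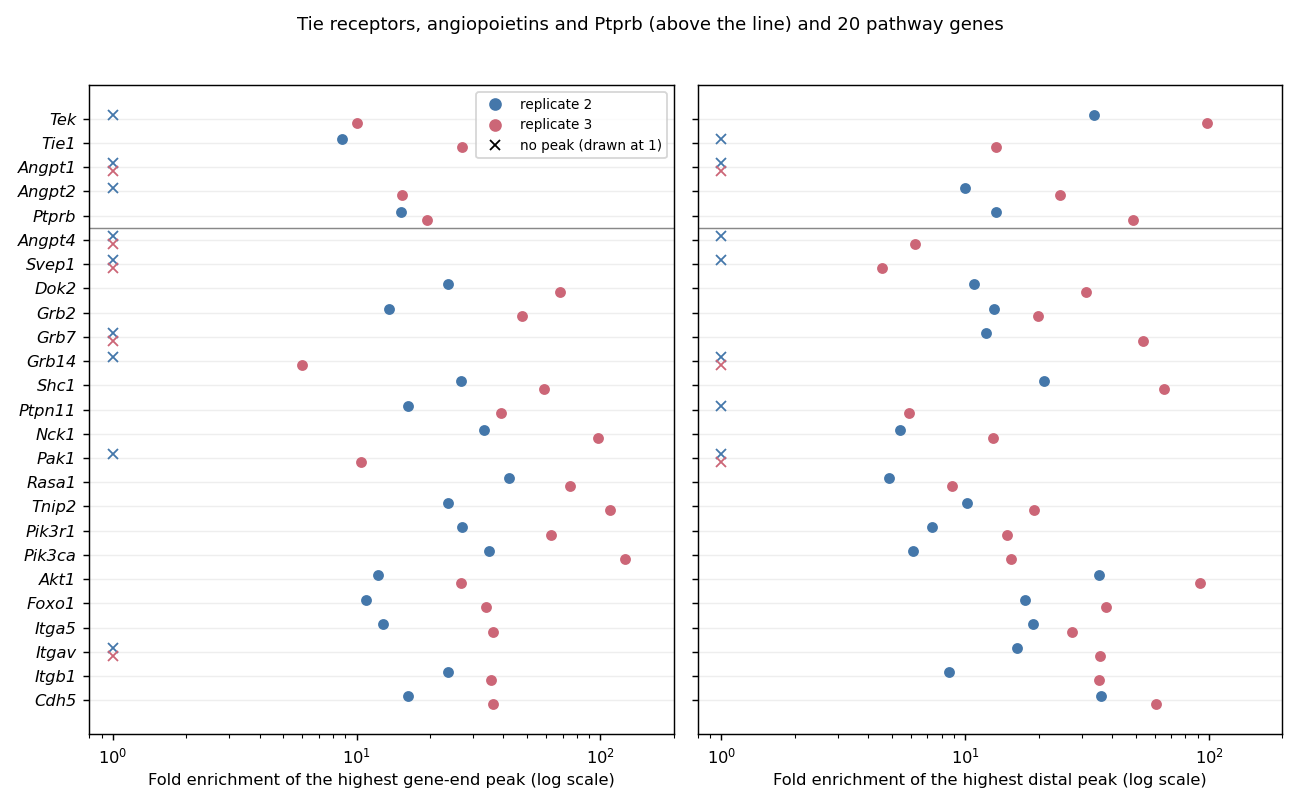
Fold enrichment (horizontal, log scale) of the highest gene-end peak (left) and the highest distal peak (right) at the 5 members, above the grey line, and at 20 pathway genes below it, with replicate 2 in blue and replicate 3 in red. A cross drawn at 1 marks a gene with no such peak in that library. *Angpt1* has crosses only, *Tek* has the highest distal values of the members, and *Angpt4* and *Svep1* have no gene-end peak.

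Genes with the most similar pattern were found by Euclidean distance over 6 standardized values: the highest gene-end and highest distal fold enrichment in each library, the number of shared distal regions, and gene length, all on log scales. Nearest to *Tek* were *Tbc1d1* (distance 0.249), *Zbtb46* (0.277), and *Zeb2* (0.348). All 3 lacked a replicate 2 gene-end peak and had replicate 3 gene-end values of 8.60 to 12.4 beside distal values of 67.3 to 90.6. These values entered the distance, so the likeness follows from the way the genes were picked. Nearest to *Ptprb* were *Nfkb1* (distance 0.188), *Snx9* (0.310), and *Lrrc8d* (0.385). Nearest to *Angpt2* were *Elf4* (0.181), *Abhd6* (0.251), and *Mink1* (0.264), and nearest to *Tie1* were *Oaf* (0.0843), *Ubl7* (0.101), and *Nudt1* (0.110). *Angpt1* had no shared region and was not matched.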

How the data were processed

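H3K27ac ChIP-Seq peaks of 2 LSEC libraries (replicates 2 and 3) were analysed, and the 2 inputs were not used. The sample records describe sonication and a ligation-based kit, whereas the paper's methods describe tagmentation. Per the labels, the submitters' processing notes name cutadapt 0.4.4, BWA 0.7.17, Picard 1.67, MACS2 2.0.10, bedtools 2.27.1, and mm10 (GRCm38). Settings, and whether the input served as control, are not given in the sources used here. The authors deposited 1 peak list per library with a fold enrichment (a ratio to the caller's background), −log10 p- and q-values, and a score that is the rescaled −log10 q. Peaks reach a −log10 q of at least 2.04 and 2.01. A deeper library yields more peaks, and depth is unknown.

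Genes and promoter windows came from the RefSeq tables for GRCm38.p6. The gene table gives no strand and no exons. Strand was known for *Tek* and *Tie1* from the promoter windows, so either gene end was used, and exons and introns were not told apart. Percentiles are shares of a list, or of 21887 genes, below a value, with ties split. A shared region was gene-end only where peaks of both libraries lay within the limit. The overlap rules were checked on planted peaks. A neighbouring gene and a marker list that holds it are not reported here. The members, pathway genes, markers, and motifs were chosen with earlier results of these data known. Named genes were the members, pathway genes lacking a gene-end peak in a library, 5 further pathway genes, genes in the windows, and the 3 nearest genes by pattern. The pathway list held *Angpt4*, *Svep1*, *Dok2*, *Grb2*, *Grb7*, *Grb14*, *Shc1*, *Ptpn11*, *Nck1*, *Pak1*, *Rasa1*, *Tnip2*, *Pik3r1*, *Pik3ca*, *Akt1*, *Foxo1*, *Itga5*, *Itgav*, *Itgb1*, and *Cdh5*. Figures were drawn with matplotlib 3.10.9, and values were computed with pandas 2.3.3, scipy 1.17.1, and numpy 2.4.6 under Python 3.11.15.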

Additional observations from a re-analysis of the deposited data

How the results depend on the processing

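No paired analysis was possible because no result comes from a test. Of 86 recounts of 10 results under 9 alternatives, 70 stayed within 1.5 times the value reported and 16 moved further. Some of the 70 could not have moved, so that number does not measure how stable the results are. No peak lay within 50 kb of *Angpt1*, and the gene-end limit does not enter the totals of shared regions. The shared regions, 18 in all and 16 distal, fell to 11 and 9 when the overlap had to cover 50% of both peaks, and the distal ones rose to 25 with 50 kb on each side of the genes. With a single library left, every peak counts as a region, so those recounts are counts of peaks. Without replicate 2 there were 52 and 46, and without replicate 3 there were 18 and 16, so the additional regions rest on replicate 3. The number of members with a shared gene-end region was 2. It was 1 without peaks near the end of another protein-coding gene, which removes the peak between *Ptprb* and *Ptprr*. That rule did not count pseudogenes, so the *Tie1* peak near *Gm12859* stayed. Left to replicate 2 alone the number of members was 2 and to replicate 3 alone 4. With a limit of 2.5 kb it was 3, which adds *Angpt2*. The pathway genes with a shared gene-end region, 14, fell to 3 under the 50% overlap, and the cause was not tested. Their shared gene-end peaks had median widths of 1483 bp in replicate 3 and 469 bp in replicate 2. *Angpt1* had 0 in every alternative. The unknown depth limits what a missing call shows, and with 2 libraries no spread between replicates was computed.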
